A study of Mus musculus with 2 samples.

Results

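The cytosolic ribosomal protein genes of the mouse were followed here as 1 module through the open chromatin of T-helper 1 (Th1) cells. They were chosen by name from the protein-coding genes of GENCODE M21: symbols with Rpl or Rps and a digit, Rplp, and Rpsa, without the Rps6k kinase genes and the symbols that end in -ps. The rule gave 86 of 21938 protein-coding genes on chromosomes 1 to 19, X and Y. Of these, 77 are the main gene of a protein of the ribosome, with 46 of the large subunit and 31 of the small subunit. The other 9 are paralogs or, for Rps19bp1, the gene of a binding partner. By the labels the measurement was ATAC-seq, in which a transposase cuts DNA that is not wrapped in nucleosomes, in primary Th1 cells of C57BL/6NJ mice. The names of the regions also carry the word ASTARR, which is not explained, so whether the signal is plain chromatin accessibility is not known, and the term open follows the labels. There was 1 group with 2 biological replicates under the same donor identifier, with no treatment or genotype contrast, and separate animals are not mentioned in the labels. With 1 group there was no contrast to test, so every value of the module stands beside the same value over other genes as a description.

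Each ribosome holds a copy of most of these proteins, and the cell needs them in matched amounts, so their genes are transcribed strongly and together in growing cells. Many of their mRNAs start with a cytosine followed by a run of pyrimidines, the terminal oligopyrimidine (TOP) tract, through which mTOR and the RNA-binding protein Larp1 control their translation. T cells that are activated and differentiate to Th1 cells make many new ribosomes. Many genes of the module are short, some hold snoRNA genes in their introns, and the module has left many processed pseudogenes in the genome.

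The TOP tract is read in the first bases of the transcript, so the bases around the start are shown first. At the reference start, which is the 5′ end of the APPRIS principal coding transcript, 11 of 77 main genes (14.3%) had a C followed by pyrimidines to a run of at least 4, against 498 of 14370 other protein-coding genes with an open promoter (3.47%). The sequences of 9 of them in the GRCm38.p6 genome are given 5′ to 3′ from 40 bases before the start to base 20 from it, with the run of pyrimidines that begins at the start in capitals:
Rpl31 (chr1:39367802-39367861, plus strand): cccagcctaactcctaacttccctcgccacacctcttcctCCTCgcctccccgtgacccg
Rpl37a (chr1:72711250-72711309, plus strand): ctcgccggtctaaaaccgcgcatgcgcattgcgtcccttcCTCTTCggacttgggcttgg
Rpl4 (chr9:64173335-64173394, plus strand): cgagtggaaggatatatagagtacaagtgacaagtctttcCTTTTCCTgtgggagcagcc
Rpl27 (chr11:101442258-101442317, plus strand): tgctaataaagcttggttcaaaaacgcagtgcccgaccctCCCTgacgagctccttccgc
Rpl37 (chr15:5116605-5116664, plus strand): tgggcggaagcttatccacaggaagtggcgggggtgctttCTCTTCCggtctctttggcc
Rpl36 (chr17:56613376-56613435, plus strand): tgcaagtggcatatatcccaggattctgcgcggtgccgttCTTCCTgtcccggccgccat
Rps21 (chr2:180257337-180257396, plus strand): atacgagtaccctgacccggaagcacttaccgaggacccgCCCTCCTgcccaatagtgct
Rps24 (chr14:24490678-24490737, plus strand): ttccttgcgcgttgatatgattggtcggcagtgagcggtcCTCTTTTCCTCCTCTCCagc
Rps2 (chr17:24720070-24720129, plus strand): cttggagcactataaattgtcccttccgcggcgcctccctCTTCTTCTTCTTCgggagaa
The runs were 4 bases long in Rpl27 and Rpl31, and 17 bases long in Rps24. Rps2 had a run of 13 bases. Annotated starts can differ between sources, by distances that were not measured here, and the letter rule moves with them. At the 67 RefSeq starts listed for 57 of the main genes, 13 (19.4%) met it, against 1236 of 32851 RefSeq starts of all genes (3.76%). Where the C and its run of at least 4 pyrimidines could begin within 10 bases on either side of the reference start, 39 of 77 main genes (50.6%) met the rule, against 45.8% of other open genes, which is close to that background. Rpl10, for example, has 9 pyrimidines at its GENCODE start but begins with a T there. It was not counted at the exact start, but it met the rule that allowed 10 bases.

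The replicate lists held 98786 and 91403 open regions on the chromosomes in replicates 1 and 2, which joined into 84380 regions found in both. Each region carries the deposited signal, the enrichment as the authors' caller gave it, whose reference is not stated. Read depth is not in the lists. The 9 Th1 and T cell marker genes that are annotated as coding (Cd3e, Cd3g, Cd4, Tbx21, Ifng, Il12rb2, Stat4, Cxcr3 and Cxcr6) had open promoters, and none of 4 myeloid genes and none of 2 hepatocyte genes had one. Of the other markers, Pax5 of 4 B cell genes, Klf1 of the erythroid genes, Klrb1c of 2 NK cell genes, Cd8b1 of 2 CD8 genes and both stromal genes had an open promoter. Their part in the values of the ribosomal protein genes was not tested.

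Every main ribosomal protein gene had an open promoter in Th1 cells. A promoter was counted as open where a region found in both replicates came within 1 kb of any annotated start of the gene. This held for 46 of 46 large-subunit genes, 31 of 31 small-subunit genes and 5 of the 9 paralogs and partner, that is 82 of 86 members (95.3%). The background was 65.9% of all protein-coding genes. Among other protein-coding genes that are no longer than 4761 bp, the upper quartile of the main genes' length, 1590 of 3846 (41.3%) were open.

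**Figure D1:**
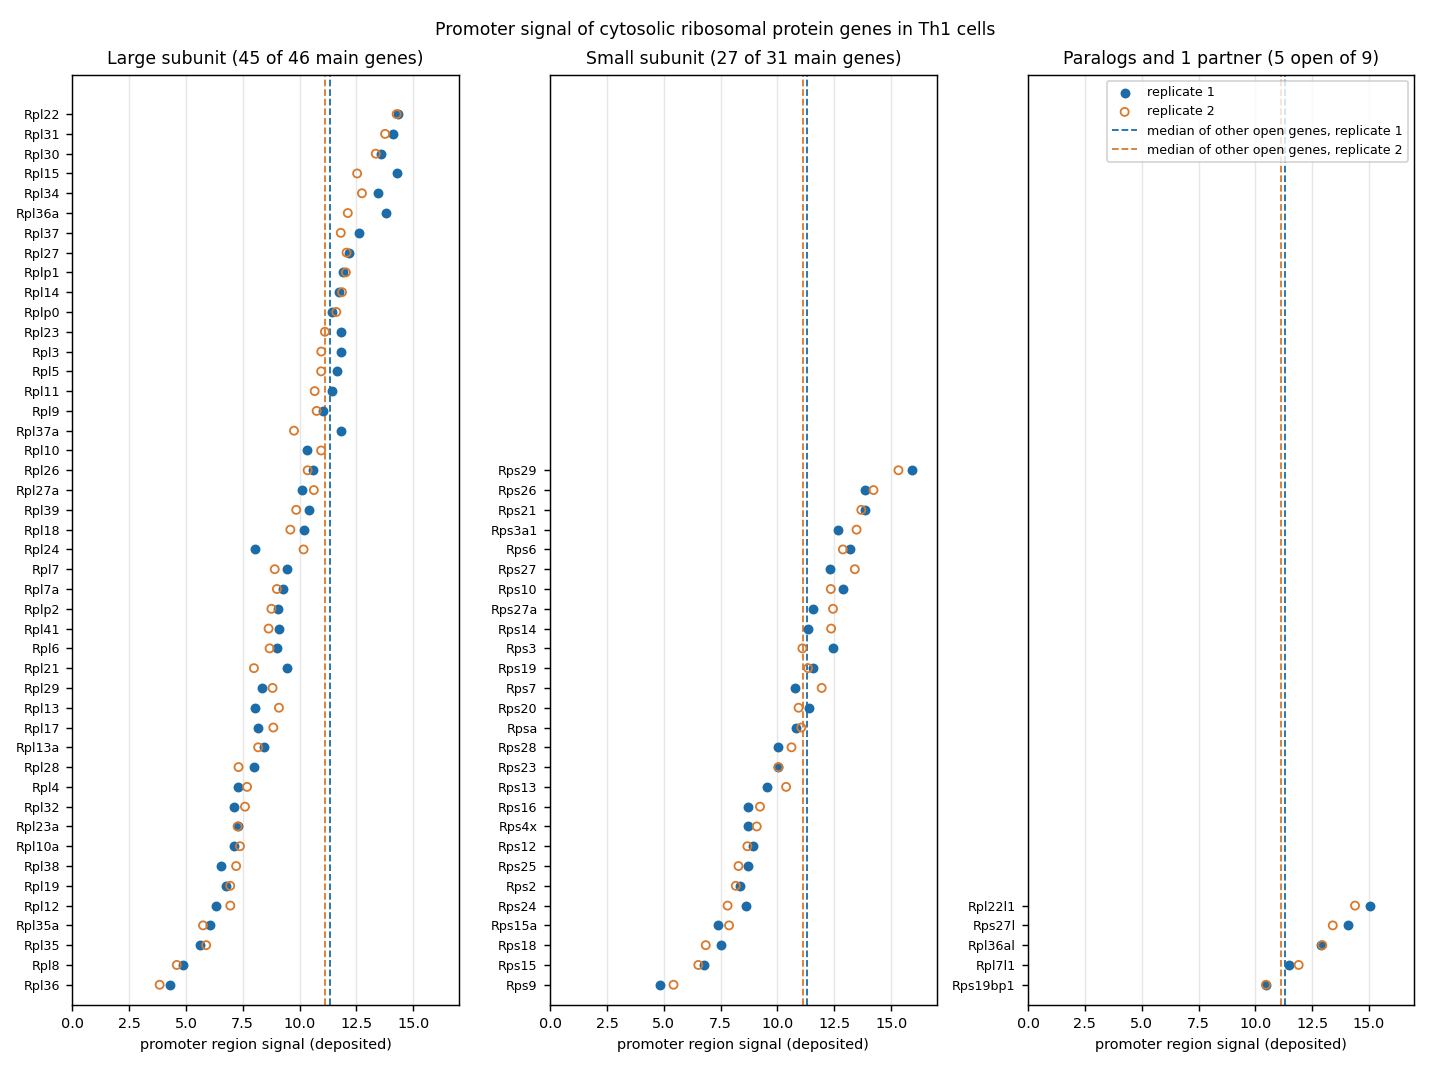
Deposited signal of the strongest promoter region (horizontal axis) for open members (1 per line), in replicate 1 (filled points) and replicate 2 (open circles), with dashed lines at the medians of other open protein-coding genes. The main genes lie between 3.84 and 15.9, and the 2 replicates of most genes lie close together.

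Open did not mean strongest by signal. The median promoter signal of the 77 main genes was 10.1 in replicate 1 and 10.2 in replicate 2, against 11.3 and 11.1 for other open protein-coding genes. The upper quartiles were 11.8 and 11.9 in main genes, against 14.1 and 13.8 in other open genes. Ranked among all 14452 open genes, for which the median percentile is 50 by construction, the members had median percentiles of 42.1 and 44.1 in replicates 1 and 2. None of the 82 open members reached the top 10% in either replicate, and 4 and 3 of them were in the bottom 10%. The plot of signal by gene shows a continuous spread from Rpl36 to Rps29 rather than separate groups of genes.

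Small-subunit genes had median signals of 10.7 and 10.6, and large-subunit genes 9.79 and 9.67. The ranges of the subunits overlapped over nearly their whole length, from 4.57 to 15.9 for the small subunit and from 3.84 to 14.3 for the large subunit. The highest main gene was of the small subunit and the lowest of the large subunit.

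Rps29, which codes for a small zinc-binding protein of the small subunit head, had the highest signal of the main genes, at 15.9 and 15.3 in replicates 1 and 2. Its region at chr12:69158454-69160004 in replicate 1 ran from the promoter into the transcribed part, and in replicate 2 the region covered 48.8% of the gene. Rpl22, a large-subunit protein needed for the development of alpha-beta T cells in mice, had 14.3 in both replicates. Rps26 had 13.8 and 14.2. Rpl31 had 14.1 and 13.8. These genes were ranked between the percentiles 72.6 and 88.9 of open genes. In Rps29, Rpl22 and Rpl31 the promoter was the strongest region by signal in a window of the gene with 20 kb added at each end, in both replicates, and in Rps26 only in replicate 2.

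At the low end, Rpl36 had signals of 4.31 and 3.84, within the lowest percentiles 5.41 and 3.92 of open genes. Its region at chr17:56613240-56616356 in replicate 1 was 3117 bp wide, covered the whole 828 bp gene, and was the widest of the module. Rpl8, a protein close to the catalytic centre of the large subunit, had 4.87 and 4.59. Rps9 had 4.84 and 5.42, and Rpl35 had 5.61 and 5.88. None of these 4 promoters was the strongest region of its window.

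To show the bases under such promoters, a pair of high and a pair of low main genes by signal are given in the GRCm38.p6 genome, 5′ to 3′ from 100 bases before the reference start to base 20 from it. Capitals mark the letters CCGGAA (the core bound by ETS factors) and GGGCGG (bound by SP and KLF factors), on either strand, so that CCGCCC is GGGCGG read on the other strand:
Rps29 (chr12:69159167-69159286, minus strand): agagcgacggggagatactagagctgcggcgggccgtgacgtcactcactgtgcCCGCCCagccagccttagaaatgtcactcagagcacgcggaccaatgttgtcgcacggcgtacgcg
Rpl22 (chr4:152325767-152325886, plus strand): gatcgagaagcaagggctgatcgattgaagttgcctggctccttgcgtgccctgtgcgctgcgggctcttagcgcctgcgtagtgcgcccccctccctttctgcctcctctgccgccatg
Rpl36 (chr17:56613316-56613435, plus strand): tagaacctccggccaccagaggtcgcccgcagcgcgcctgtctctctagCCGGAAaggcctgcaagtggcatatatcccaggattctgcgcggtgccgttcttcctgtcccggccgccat
Rpl8 (chr15:76903978-76904097, plus strand): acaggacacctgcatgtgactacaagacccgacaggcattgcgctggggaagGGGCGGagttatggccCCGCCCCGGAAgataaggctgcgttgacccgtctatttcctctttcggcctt
CCGGAA stands in Rpl36 and Rpl8, and not in the windows shown for Rps29 and Rpl22. In Rpl8 it shares a base with a CCGCCC. Neither motif is in the window shown for Rpl22.

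Over the wider window from 250 bases before the start to 50 after it, CCGGAA was found on either strand in 35 of 77 main genes (45.5%), against 24.9% of other open genes and 18.2% of all protein-coding genes. The longer CCGGAAGT, which contains it, was in 12 main genes (15.6%) and 7.15% of other open genes. Neither share was particular to the module: in the 78 genes of mitochondrial ribosomal proteins they were 55.1% for CCGGAA and 16.7% for CCGGAAGT. The 35 main genes with CCGGAA had a median signal percentile of 49.6, and the 42 without it 32.3. By contrast GGGCGG was in 36 main genes (46.8%) and in 61.5% of other open genes. The E-box CACGTG, bound by Myc and related factors, was in 10 main genes (13.0%) and 9.57% of other open genes. AAGATGGC of YY1 and GCATGCGC of NRF1 were in 4 main genes each (5.19%), against 4.17% and 4.70% of other open genes. TATA between 40 and 15 bases before the start was in 7 main genes (9.09%) and 3.30% of other open genes. In the mitochondrial set the shares were 48.7% for GGGCGG, 6.41% for CACGTG, 14.1% for AAGATGGC, 10.3% for GCATGCGC and 2.56% for TATA. The ratio of observed to expected CpG within 500 bp of the start had a median of 0.814 in main genes. In other open genes the median was 0.708. The ratio was at least 0.6 in 74 of 77 main genes (96.1%), against 67.5% of other open genes. Of the 78 genes of mitochondrial ribosomal proteins, 75 (96.2%) reached it as well.

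The same motif was looked for in the open regions themselves. Within 100 bases of the summit, CCGGAA was in 37 and 38 of 77 main genes in replicates 1 and 2 (48.1% and 49.4%), against 21.8% and 21.7% of other open genes. The 78 genes of mitochondrial ribosomal proteins had it at 35 and 36 summits (44.9% and 46.2%). GGGCGG was at 41 and 40 summits of main genes (53.2% and 51.9%), against 53.5% and 53.0% of other open genes, so around the summit that share lay close to the background.

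The rank of the module depended on which quantity was read. The deposited signal and p-value of a region can be solved together for the height of its pileup and for the local background it was set against, if the signal is the ratio (pileup + 1)/(background + 1) and the p-value is a Poisson tail. This gave a pileup within 0.05 of a whole number in 99.96% of regions in replicate 1 and 99.94% in replicate 2; the caller itself is not given in the sources used here, so it is called the implied pileup. By implied pileup the open members had median percentiles of 62.5 and 62.8 in replicates 1 and 2. Percentiles by implied pileup took each gene's promoter region with the highest implied pileup. The implied pileups and backgrounds themselves are given for its strongest region by signal. The 2 can be different regions in the 10 main genes with more than 1 promoter region. The median implied pileup was 414 and 356 in main genes, against 318 and 273 in other open genes. The median implied background under the same regions was 40.6 and 34.9 in main genes, against 26.6 and 23.1 in other open genes.

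Among the main genes, 62 of 77 (80.5%) ranked higher by implied pileup than by signal. That share was not computed for all open genes, so how far it is particular to the module is not known. Rpl13a had the highest implied pileup of the module, at 848 and 720 and percentiles 95.7 and 95.2, while its signal was 8.42 and 8.17, at percentiles 27.3 and 26.9. Its implied background was 99.8 and 87.2. The ribosomal stalk gene Rplp0 had implied pileups of 741 and 642. Rps21 followed with 726 and 610, and Rps19 with 711 and 585. The lowest implied pileups of strongest regions by signal were at Rps4x (132 and 123) on the X chromosome and at Rpl3 (171 and 138). In Rpl3 that region lies at the start of Syngr1. By the promoter region with the highest implied pileup, Rpl3 had a mean percentile of 53.5.

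**Figure D2:**
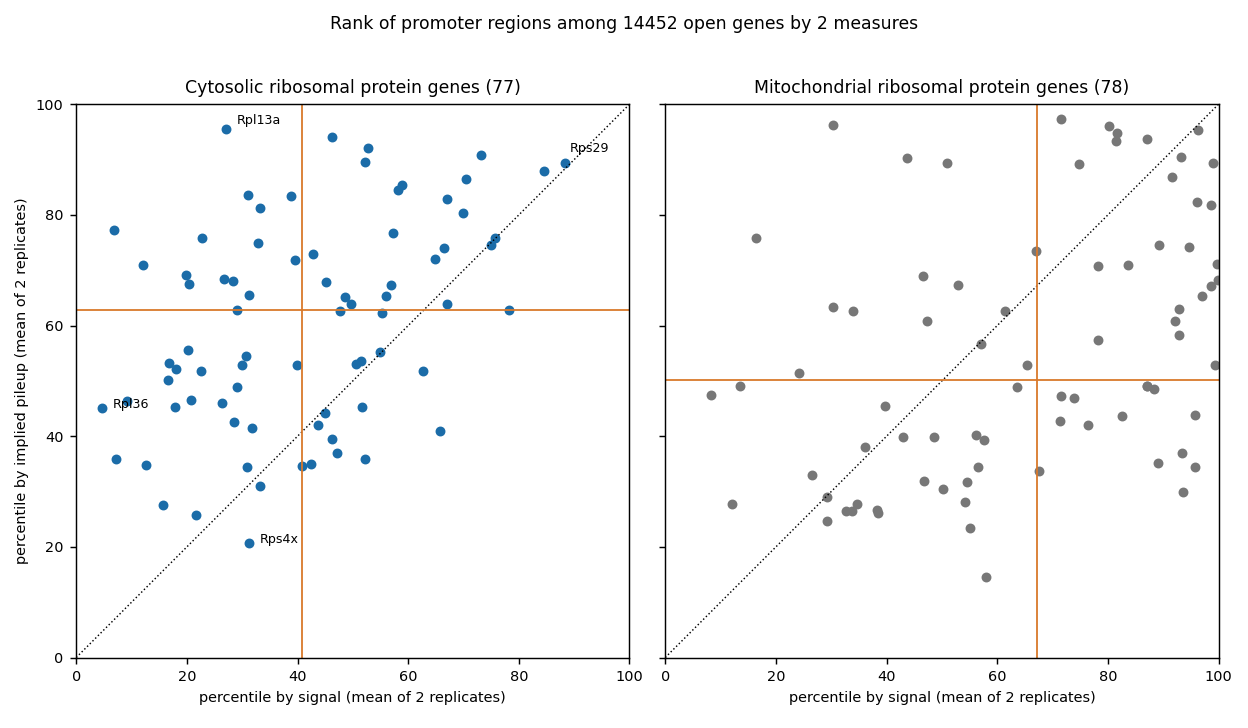
Percentile of each gene by implied pileup (vertical axis) against its percentile by deposited signal (horizontal axis), both as the mean of 2 replicates, for cytosolic main genes (left) and mitochondrial ribosomal protein genes (right), with solid lines at the medians and a dotted line of equal ranks. Cytosolic genes lie mostly above the dotted line, with medians of 40.7 by signal and 62.7 by pileup, and mitochondrial ones lie on both sides, with medians of 67.2 and 50.3. Each measure took the gene's highest promoter region by that measure, so the 2 can be different regions.

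The proteins of the mitochondrial ribosome are encoded in the nucleus by a separate set of genes, which had the other order. All 78 of these genes had open promoters. Their median percentile was 67.2 by signal and 50.3 by implied pileup, and 24 of 78 ranked higher by implied pileup than by signal. Their median implied background was 24.0 and 20.9 in replicates 1 and 2.

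The P stalk, which recruits the translation GTPases to the ribosome, is made by Rplp0, Rplp1 and Rplp2. Rplp0 had signals of 11.4 and 11.6, Rplp1 11.9 and 12.03, and Rplp2 9.05 and 8.76. Rplp0 stood far above the other 2 by implied pileup, with 440 and 396 at Rplp1 and 435 and 375 at Rplp2.

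Several genes of the module cause Diamond-Blackfan anaemia in humans when a copy is lost, and those listed here were spread widely by signal. Rps26 had 13.8 and 14.2, as given above. Rps10 had 12.9 and 12.3, Rps19 had 11.5 and 11.3, and Rpl5 had 11.6 and 10.9. Rpl5 and Rpl11 form the 5S particle that also binds the p53 regulator Mdm2, and Rpl11 had 11.4 and 10.7. The values of Rps7 were 10.8 and 11.9. Rps24 had 8.61 and 7.80, and Rpl35a had 6.04 and 5.75. Rpl35a thus lay below the lower quartile of the main genes, 8.05 and 7.99 in replicates 1 and 2.

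Other genes with roles of their own fell between these. Rps6, whose protein is phosphorylated by the S6 kinases after T cell receptor and mTOR signalling, had 13.2 and 12.9. Rps14, lost in the 5q- syndrome in humans, had 11.3 and 12.4, and Rpsa, whose loss of function causes isolated asplenia in humans, had 10.8 and 11.05. Rps27a, which is made as a fusion with ubiquitin, had 11.5 and 12.4. Rps3 had 12.5 and 11.1, and Rpl10, which is added late to the large subunit, had 10.3 and 10.9. Rpl38, whose deletion gives the Tail short mouse with its skeletal defects, had 6.53 and 7.20.

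The replicates were close for most members. The median size of the difference in signal between them was 0.08 on the log2 scale in main genes and 0.07 in other open genes. Only Rpl24 and Rpl37a differed by more than 1.2-fold. Rpl24 had signals of 8.01 and 10.2, a ratio of 1.27 of replicate 2 over replicate 1, and Rpl37a had 11.8 and 9.75, a ratio of 0.826. Among other open genes 6.28% differed by that much. The summit lay within 20 bp in both replicates in 55 of 77 main genes (71.4%), against 60.3% of other open genes.

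Promoter regions of the module were of ordinary width on short genes. Their median width was 1300 and 1307 bp in main genes, against 1266 and 1270 bp in other open genes. The genes themselves had a median length of 3289 bp, against 17589 bp, so the region covered a median of 22.2% and 22.0% of each open member. Rpl36 had the widest region at 3117 and 3073 bp. Next came Rpl7 with 2498 and 2517 bp. Rpl10a had a width of 2242 and 2265 bp, and Rpl14 one of 2069 and 2015 bp. Rpl36 was also the weakest promoter by signal, and Rpl14 had signals of 11.8 and 11.9. The narrowest were Rps28 (702 and 969 bp), Rpl21 (809 and 838 bp) and Rpl18 (827 and 859 bp).

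The highest point of the region, the summit, lay close to the start of transcription. In each replicate it was within 100 bp of the reference start in 52 of 77 main genes (67.5%), against 42.7% and 41.3% of other open genes. The median distance was 62 and 61 bp in main genes and 137 and 143 bp in other open genes. It was also short in related gene lists, at 60.5 and 68 bp in mitochondrial ribosomal protein genes and 49 and 67 bp in ribosome assembly genes. The summit was upstream of the start in 46 and 47 of the 77 (59.7% and 61.0%), against 50.3% and 49.6% of other open genes. At Rps24 it was 5 and 3 bp downstream.

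**Figure D3:**
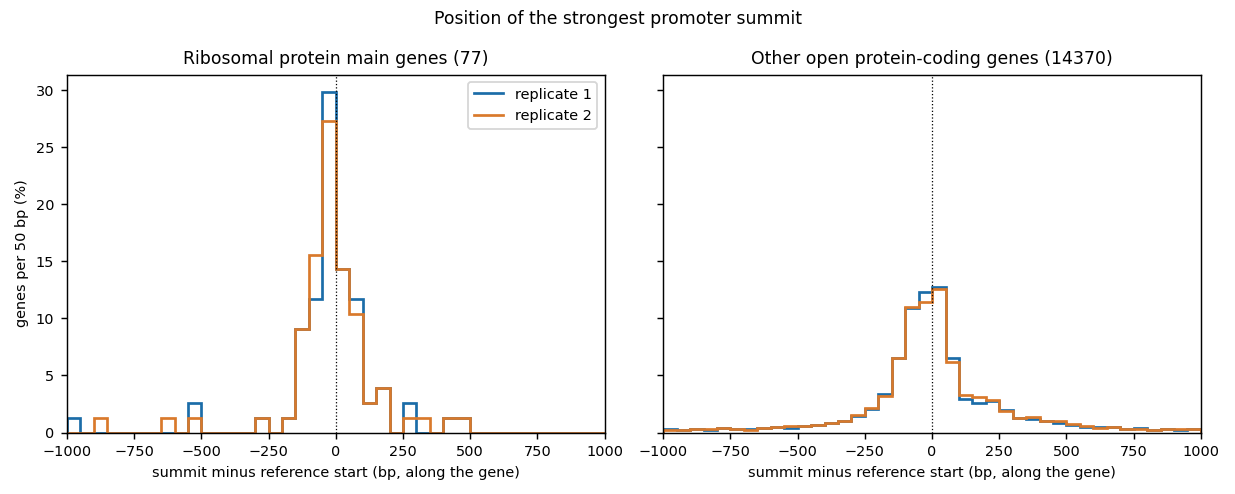
Share of genes (vertical axis, % per 50 bp) by the distance of the strongest promoter summit from the reference start along the gene (horizontal axis, bp, negative is upstream), in each replicate, for ribosomal protein main genes (left) and other open protein-coding genes (right). The tallest bin of the main genes is the 50 bp before the start, with 29.9% and 27.3% of genes, against 12.3% and 11.5% for other genes in that bin.

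Some members had their summit elsewhere. In Rpl3 the strongest region was 7899 bp upstream of the reference start, at the start of Syngr1. The region at the Rpl3 start itself had its summit 34 bp upstream in replicate 1 and signals of 7.98 and 7.44. In Rps18 the strongest region lay 4116 bp downstream, at the start of B3galt4. In Rpl41 it lay 1543 bp downstream, at the start of Zc3h10. The reference start of Rps14 lay 1752 and 1657 bp downstream of the summit of its strongest region. Rpl7, Rpl35a and Rpl4 had summits 961 and 896 bp, 508 and 601 bp, and 503 and 503 bp upstream, and in these 3 genes the region also holds the start of a gene on the other strand. Rpl38 and Rpl35 had theirs downstream, at 468 and 492 bp and at 441 and 440 bp.

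The promoter region also covered the start of another protein-coding gene in 14 of 82 open members (17.1%), against 16.1% of other open genes. The strongest of these by signal were Rpl15 with Nkiras1, 69 bp away, Rpl36al with Mgat2, 74 bp away, Rps10 with RPS10-NUDT3, 323 bp away, Rps27a with Clhc1, 159 bp away, and Rpl3 with Syngr1. All of these but Rps10 are on opposite strands. Rps28 and Ndufa7, a subunit of respiratory complex I, had starts 10 bp apart. The signal of such a region cannot be given to 1 of its genes.

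In these windows of 20 kb around each gene, the main genes had a median of 6 shared regions, against 4 for other protein-coding genes. Per 10 kb these were 1.22 and 0.67 regions. All main genes were open, whereas only 65.8% of these other genes were, and 20.2% of them had no region in the window. The comparison was not made with other open genes alone. The most were at Rps14 (13 regions), Rpl3 (10), and Rpl6, Rpl18, Rpl22 and Rplp2 (9 each). Regions inside the gene and away from every start were few: 8 of 86 members (9.30%) had one, against 43.4% of other protein-coding genes and 3.95% of those no longer than 4761 bp. These were Rps14 with 4, Rpl11 with 3, Rps15a with 2, and Rpl5, Rpl22, Rpl26, Rpl35 and Rpl7l1 with 1 each. Rps14 and Rpl11 have the longest annotated genes of the module, at 31449 and 25164 bp.

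**Figure D4:**
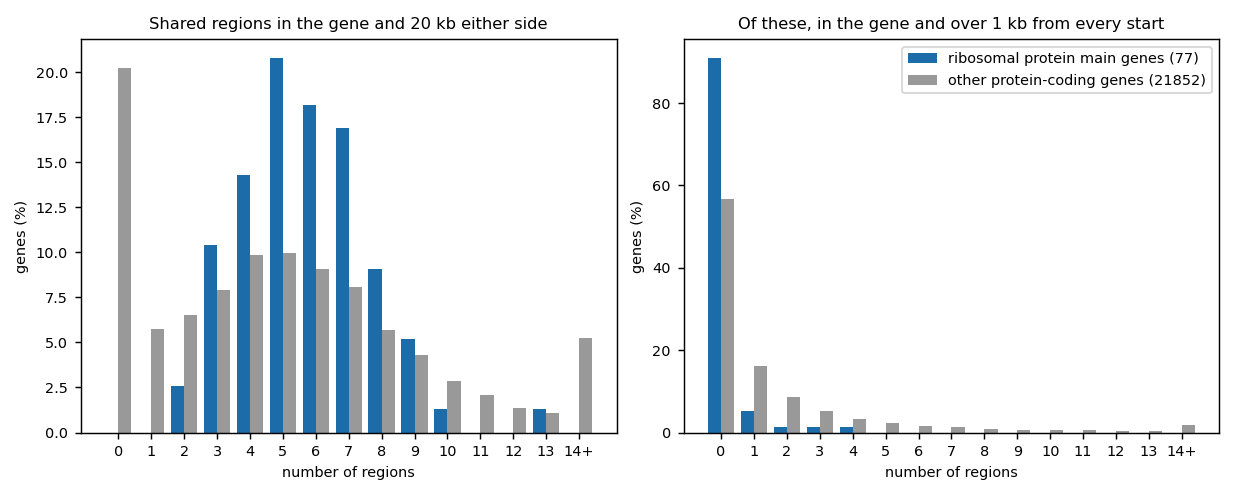
Share of genes (vertical axis, %) by how many shared regions its window holds (left panel, gene with 20 kb at each end) and by the number inside the gene and over 1 kb from every start (right panel), for ribosomal protein main genes and other protein-coding genes. Main genes have 2 to 13 regions in their windows, and 70 of 77 have none inside the gene away from a start. The other genes include those without an open promoter.

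The promoter was the strongest region of its own window by signal in 34 and 36 of 82 open members, and by implied pileup in 26 and 22. In the others, another region of the window was stronger. These ranks were not computed for other open genes, so whether the counts are low or high is not known. Rpl34 had a region 6.77 kb upstream of its start with signals of 17.7 and 14.6, and its own promoter had 13.4 and 12.7. Rpl41 had one 12.8 kb downstream with 16.8 and 17.1. Near Rpl6 a region 24.9 kb downstream of the start had 15.1 and 15.8, against 8.99 and 8.68 at the promoter. These regions were over 1 kb from every start, and which gene they act on is not known from the lists.

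Members sit close to each other in only a few places. Chromosome 7 held 14 of the 86, and chromosomes 19 and Y none. Rps2 and Rpl3l were 5890 bp apart, and Rps29 and Rpl36al 23544 bp, so these pairs share part of their windows. SnoRNA genes, whose RNAs guide the modification of ribosomal RNA, lay inside 30 of the 77 main genes, with 58 in all, 5 of them in Rpl4 and 4 in Rpl13a. The median signal percentile was 36.2 in the 30 hosts and 43.8 in the other 47 main genes, and by implied pileup both medians were 62.7.

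The 4 closed members were all paralogs. Rpl3l (striated muscle), Rpl10l and Rpl39l (testis) and the retrogene Rps27rt had no region within 1 kb of a start in either replicate. Rpl10l had no shared region in its window, and the nearest region was 774882 bp away in replicate 1 and 937693 bp in replicate 2. At Rpl39l these distances were 109966 and 110170 bp. Rpl3l had 7 shared regions in its window, the nearest 3070 and 3116 bp from a start, and it lies 5890 bp from the open gene Rps2. Rps27rt had regions 2247 and 2263 bp away.

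Of the 5 open ones, Rpl22l1, the paralog that can take the place of Rpl22, had signals of 15.1 and 14.4, against 14.3 and 14.3 for Rpl22. Rps27l had 14.1 and 13.4, against 12.3 and 13.4 for Rps27. Rpl36al, a copy of Rpl36a, had 12.9 in both replicates, against 13.8 and 12.1 for Rpl36a, and its implied pileups of 815 and 665 were the second highest of the module in replicate 1, in a region shared with Mgat2. Rpl7l1 had 11.5 and 11.9, against 9.46 and 8.90 for Rpl7. Rps19bp1, whose product binds Rps19, had 10.49 and 10.47. All 5 had their summit within 100 bp of the start in both replicates.

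Ribosomal proteins whose names fall outside the rule were open too. Rack1, the scaffold on the small subunit, had 11.1 and 10.4. Fau, which carries a small-subunit protein, had 4.75 and 5.08 in a region shared with Mrpl49. Of the genes left out by name, the 10 Rps6k kinase genes were all open, and of 6 coding genes with -ps names only Rpl9-ps6 was, with 13.9 and 12.3.

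Genes that work with the ribosome were open nearly throughout. All 18 initiation factor genes had open promoters, from Eif4a2 (6.20 and 6.75) to Eif2s2 (17.4 and 15.8). Of 7 elongation factor genes 6 were open, from Eef2 (4.83 and 4.98) to Eef1g (14.2 and 13.4), and Eef1a2, the form used in muscle and neurons, was not. All 25 ribosome assembly genes were open, from Nop10 (3.48 and 3.09) to Ltv1 (17.7 and 18.5). All 6 regulators were open, from Myc (5.05 in both replicates) to Rptor (17.1 and 17.8), which codes for the mTOR partner Raptor. The median signal percentile was 45.4 for the open elongation factors, 52.0 for initiation factors, 57.6 for assembly factors and 64.2 for regulators, beside 40.7 for the main ribosomal protein genes. By implied pileup the medians were 72.6 for elongation, 68.1 for initiation, 57.1 for assembly factors and 70.6 for regulators. The main ribosomal protein genes had 62.7 by that measure, above the assembly factors, so the order of the lists depended on the quantity read.

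Their processed pseudogenes, intronless copies pasted into the genome from mRNA, were mostly closed. Of 294 annotated pseudogenes with Rpl or Rps names, 19 (6.46%) had a shared region within 1 kb of the start, against 649 of 9942 other processed pseudogenes (6.53%). The 294 were chosen by name, so copies of ribosomal protein genes under other names would be counted among the others. The shares therefore do not compare all ribosomal protein pseudogenes with the rest. Over 2 kb from a coding start these were 18 of 282 (6.38%), against 558 of 9612 (5.81%). None of those 18 regions covered the start of the pseudogene itself. Among the 18, the strongest by signal in replicate 1 were near Rpsa-ps12 (13.7 and 12.4), Rpl34-ps1 (13.4 and 12.8) and Rps15a-ps5 (13.0 and 13.2).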

How the data were processed

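ATAC-seq open regions of 2 biological replicates of Th1 cells were used as deposited, 1 list per replicate, with mm10 as the build per the labels. No aligner, caller or read depth is given in the sources used here. Each region is named with Th1, ASTARR, a replicate number, hours of time and processing words such as dedup and masked, and what ASTARR stands for is not stated. The deposited lists give a signal per region, −log10 p and −log10 q by the authors, and a deposited display score that was not used further. Replicate lists were joined where regions overlapped by at least 1 bp, and starts were taken from GENCODE M21. For each gene the strongest promoter region by signal was used in each replicate. Percentiles by implied pileup or −log10 q instead took the promoter region highest by that quantity. Chromosome lengths of GRCm38.p6 were checked against the regions, and bases and motifs were read from that genome. The members and lists were chosen with earlier results of these data known. The rule for genes named with full values took the 5 main genes highest and the 5 lowest by mean signal percentile, the 5 widest regions, the 5 richest windows, the closed members, the paralogs, P stalk genes, a list of disease and other genes, and the extremes of each pathway list; any member could be named. Signals have no reads behind them in the lists, so no interval is given, and the 2 replicates may share a donor. Python 3.11.15, pandas, numpy, scipy and pysam were used, and the scripts were tested on simulated data. Alternatives are given in the closing section. Some genes and sequences that the rule would name are not reported here, though they are included in all counts and medians.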

Additional observations from a re-analysis of the deposited data

How the results depend on the processing

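The count of 82 open members was 82 with windows of 500 bp, with coding starts alone, with a 50% reciprocal overlap, with −log10 q of at least 5 and with either replicate left out, and 83 at 2.5 kb. The median signal percentile of members, 43.1 as the mean of replicates, was 62.6 ranked by implied pileup and 55.4 by −log10 q, so its side of 50 depended on the quantity. It was 36.5 among genes with a CpG ratio of at least 0.6, 40.98 for main genes only, 45.7 with the region nearest the reference start, 46.3 where the region held no start of another coding gene, and 43.1 to 44.6 with 1 replicate left out. The summit distance, 64.2 bp, was 45.5 bp from the nearest annotated start, and 61.5 to 67.0 bp with 1 replicate left out. The median width was 1290.5 to 1309.5 bp with 1 replicate left out. The median of 5 regions per window was 1 within the gene alone, 2 for regions over 1 kb from every start, and 6 with either replicate left out. For the 10 genes named as highest or lowest, 59 recomputed percentiles moved by more than the replicate spread and 61 did not. No paired analysis was possible because there is 1 group. Depth is unknown, so a closed promoter means no region called in both lists.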
